A study of Mus musculus with 230 samples.

Results

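The tissue was the ventral hippocampus of C57BL/6J mice, all male, whose self-administration sessions delivered saline and never cocaine. The comparison had 2 conditions. The SS mice spent 30 d in withdrawal, received a single saline injection in the self-administration setting, as far as the label's wording shows, and tissue was taken 1 h later. Tissue of the S24 mice, labelled with no challenge, was taken after 24 h of withdrawal. The members were chosen by brain region, self-administered solution and challenge as labelled, which gave 6 SS and 7 S24 libraries, 13 of the 230 libraries of the series. Each library is named by its title, in which the number is the mouse. CS mice (6 libraries) self-administered cocaine and were injected with saline at 30 d, and C24 mice (8 libraries) were taken at 24 h after cocaine; they serve as a contrast. The fit also held the mice injected with cocaine at 30 d, SC after saline (7 libraries) and CC after cocaine (5 libraries). All 39 libraries share 1 estimate of the spread, and with only SS and S24 in the fit 68 genes were higher and 11 lower. SS and S24 differ in the length of withdrawal, in age, in the setting and in the injection, and the mice carry separate ranges of numbers, so these cannot be told apart. The labels state no time of day and no age, and do not say whether tissue was pooled.

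The hippocampus is built around a loop from dentate granule cells through the CA3 and CA1 pyramidal fields, and its ventral part projects to the amygdala, prefrontal cortex and nucleus accumbens and is known for roles in anxiety, context and stress. Handling, injection and re-exposure to a context raise neuronal activity, and activity induces immediate early genes within minutes, most of them transcription factors such as Fos. A separate response to a load of unfolded protein in the endoplasmic reticulum (ER) raises chaperones through the factors ATF6 and XBP1. Heat shock factor drives the chaperones of the cytosol.

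Total counts ran from 19833232 to 26224932 reads in SS and from 18811305 to 26723794 in S24. Levels are given as CPM, counts scaled to a library of fixed total, with TMM factors, and differences as log2 fold changes of SS over S24 from edgeR. Of 17063 genes tested, 464 were called, of which 303 (1.78% of those tested) rose and the rest (0.944%) fell in SS at an adjusted p (Benjamini-Hochberg) under 0.05, and 3318 passed an unadjusted 0.05. The median log2 fold change was 0.59 among the genes that rose, -0.48 among those that fell and -0.01 over all genes. Every SS library lay above every S24 library in 0.733% of genes, and below in 71 genes (0.416%).

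The libraries differed in the tissue they carried, and this is given before the results it touches. Prox1, a transcription factor that marks dentate granule cells, ran from 75.2 to 209.8 CPM in SS (median 132) and from 20.9 to 131 CPM in S24 (median 59.3). The S24 libraries Hipp-182, Hipp-201 and Hipp-225 lay under 30 CPM and no SS library did. None of the 18 granule cell markers passed the test, yet 17 had a positive log2 fold change, with a median of 0.54, and their summed level was 939 to 2072 CPM in SS and 647 to 1604 CPM in S24. Of 17 markers of CA3 pyramidal and mossy cells 3 had a positive value (median -0.38, and -0.03 without the 3 low-Prox1 S24 libraries and those of other conditions), and of 16 myelin markers 1 did (median -0.43, and 0.18 without them). None of these passed the test, and their summed levels overlapped between the groups. In bulk tissue, fewer cells of a type and less RNA per cell cannot be told apart. The S24 library Hipp-182 carried choroid plexus transcripts: Ttr, the thyroid hormone carrier secreted by that tissue, stood at 17411 CPM there, at 1.22 to 24.8 CPM in the other S24 libraries and at 0.939 to 19.7 CPM in SS. The S24 library Hipp-191 had 158 CPM of the dopamine transporter gene Slc6a3, against a group median of 0.591 CPM. The SS library Hipp-035 had 118 CPM of the meningeal fibroblast gene Ogn, against 2.34 to 15.1 CPM in the other SS libraries, and all 15 meningeal markers had positive log2 fold changes (median 1.27) without any passing the test. Without library Hipp-182, 285 genes were higher of 447 called. Without the libraries of any condition under 30 CPM of Prox1, which left 4 S24 libraries, 46 genes were higher and 20 lower. Of the genes called higher and lower with all libraries, 42 and 16 kept the call. The sign was kept in 100% and 99.4% of them, with median log2 fold changes of 0.53 and -0.44. The remaining libraries had also served to choose these genes, so the kept signs are no separate test. With the mean of the granule cell markers as a covariate 98 were lower of 312 called.

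**Figure D1:**
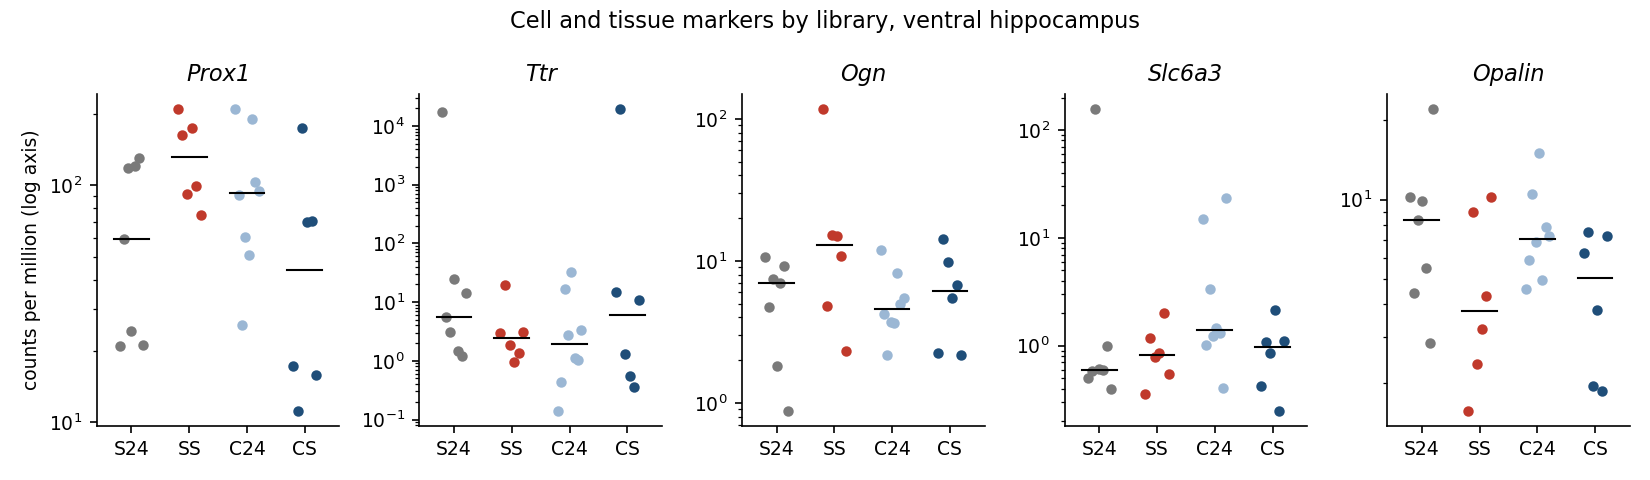
CPM on log axes for markers of granule cells (Prox1), choroid plexus (Ttr), meninges (Ogn), dopamine neurons (Slc6a3) and myelin (Opalin), 1 point per library and a bar at the median, in S24 (n = 7), SS (n = 6), C24 (n = 8) and CS (n = 6). One S24 library stands at 17411 CPM of Ttr, another at 158 CPM of Slc6a3, one SS library at 118 CPM of Ogn and one CS library at 19654 CPM of Ttr.

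These 7 promoter stretches are shown first, because 4 of the chaperone genes that rose, and Hsp90b1, which did not pass the test, hold the same motif in them. They are RefSeq sequences of GRCm38.p6 (mm10), read 5′ to 3′ on the strand of the gene and all upstream of the RefSeq start. In the first 5 the capitals mark the ER stress response element, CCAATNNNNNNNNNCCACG on either strand, in which the first letters bind the factor NF-Y and the last bind ATF6. In the last 2 they mark the cAMP response element TGACGTCA, the site of CREB, which reads the same on both strands. In order the stretches lie at chr2:34772000-34772068 (plus strand), chr15:88819495-88819563 (plus), chr12:17266466-17266534 (plus), chr8:84847050-84847118 (minus), chr10:86705508-86705681 (minus), chr1:134079289-134079346 (minus) and chr15:79347466-79347519 (plus).
Hspa5: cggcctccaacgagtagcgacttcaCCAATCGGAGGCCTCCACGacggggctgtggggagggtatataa
Creld2: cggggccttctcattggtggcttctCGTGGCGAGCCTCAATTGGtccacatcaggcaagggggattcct
Pdia6: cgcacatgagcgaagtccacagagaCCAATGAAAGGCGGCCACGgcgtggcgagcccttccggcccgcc
Calr: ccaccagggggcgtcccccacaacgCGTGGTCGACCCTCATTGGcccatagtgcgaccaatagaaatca
Hsp90b1: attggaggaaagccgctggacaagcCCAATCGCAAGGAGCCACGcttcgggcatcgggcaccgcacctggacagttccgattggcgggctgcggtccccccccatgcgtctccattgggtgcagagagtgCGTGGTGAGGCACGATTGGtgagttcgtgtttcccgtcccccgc
Btg2: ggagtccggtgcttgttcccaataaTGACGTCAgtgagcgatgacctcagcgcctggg
Maff: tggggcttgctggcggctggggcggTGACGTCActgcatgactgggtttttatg

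Immediate early transcription factors were higher in SS. Of 25 listed factors 13 rose and none fell (1.78% of all genes rose), 24 had a positive log2 fold change and the median was 0.65, against -0.01 over all genes. Fosb, an AP-1 subunit whose stable splice form builds up with repeated stimulation (ENSMUSG00000003545, chromosome 7, 19302696 to 19310051, minus strand), had the smallest p of all genes. It ran from 16.5 to 31.5 CPM in SS (median 21.5) and from 4.73 to 9.91 CPM in S24 (median 8.38), with no overlap. Its means were 21.9 ± 5.37 CPM (SD, n = 6) and 8.13 ± 1.73 CPM (n = 7), and its log2 fold change in edgeR was 1.43 (SE 0.18, adjusted p = 2.40e-05). Fos, its paralogue and the best known gene of the family (chromosome 12, 85473890 to 85477273, plus strand), ran from 19.5 to 41 CPM in SS (median 25) and from 3.04 to 16.9 CPM in S24 (median 9.41). The groups again did not overlap, and the log2 fold change was 1.60 (SE 0.30, adjusted p = 0.00206).

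Npas4, a factor induced by calcium entry in neurons (chromosome 19, 4984355 to 4990316, minus strand), ran from 9.04 to 24.7 CPM in SS (median 14.2) and from 2.83 to 8.19 CPM in S24 (median 5.94). Every SS library exceeded every S24 library, and the log2 fold change was 1.43 (SE 0.25, adjusted p = 0.00112). Atf3, a stress-induced factor of the same broad class, rose from a mean of 0.47 to 1.57 CPM (log2 fold change 1.73, adjusted p = 0.00159), and Maff from 1.18 to 2.96 CPM (1.32, adjusted p = 0.00407). Fosl2, an AP-1 subunit of higher level, ran from 99.9 to 165 CPM in SS and from 67.2 to 90 CPM in S24 (0.65, adjusted p = 0.000421). Egr1, a zinc finger factor, rose from 83 ± 14.6 to 141 ± 30.4 CPM, with 64.5 to 101 CPM in S24 and 109 to 178 CPM in SS (0.76, SE 0.17, adjusted p = 0.0103). The Krüppel-like factors Klf4 and Klf2, which are also active in endothelium, rose by 1.28 and 1.21 on the log2 scale, and neither gene's groups overlapped. Jun, Junb, Egr4 and Btg2 made up the rest of the 13, with log2 fold changes of 0.53, 0.79, 0.96 and 0.97.

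Other factors of the list did not pass. Egr2 had 6.93 ± 2.15 CPM in SS and 3.22 ± 2.09 CPM in S24 (log2 fold change 1.10, adjusted p = 0.0818). Nr4a1, an orphan nuclear receptor, had 72.6 ± 17.9 and 51.9 ± 12.6 CPM (0.48, adjusted p = 0.118), and in both genes the ranges overlapped. Klf10, named after its value was seen, alone had a negative value, -0.41 (adjusted p = 0.124). The count of 13 was the same without library Hipp-182 and with the granule cell covariate, and was 5 without the low-Prox1 libraries, where the median stayed at 0.65. There Npas4 (1.44, adjusted p = 0.052), Egr1 (0.76, adjusted p = 0.0853) and Junb (0.72, adjusted p = 0.136) were no longer called.

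**Figure D2:**
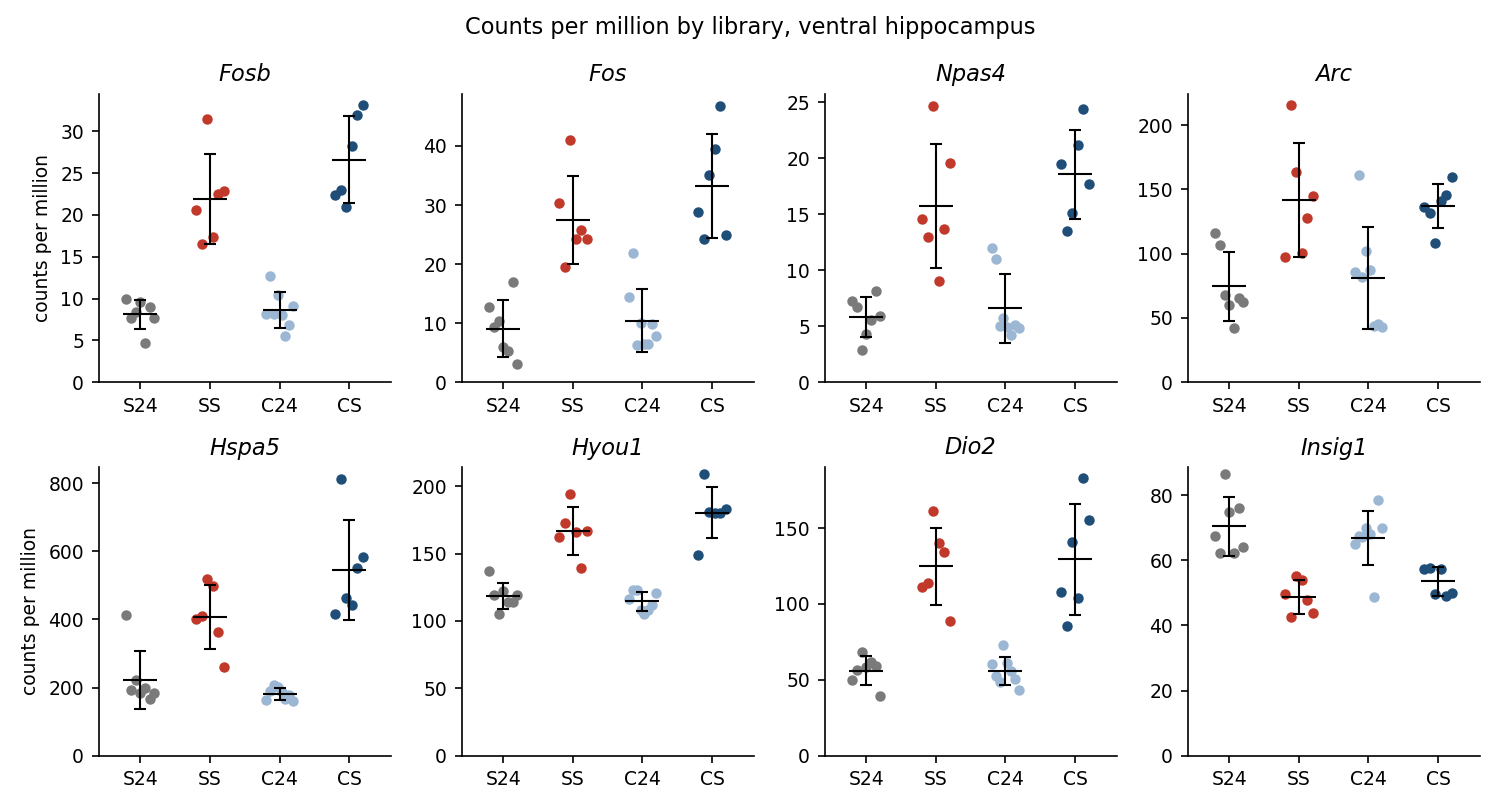
CPM of 8 genes, 1 point per library with the mean and SD, in S24 (n = 7), SS (n = 6), C24 (n = 8) and CS (n = 6); each axis starts at 0. Fosb, Fos, Npas4, Dio2 and Insig1 do not overlap between SS and S24, Arc does, and Hspa5 does through 1 S24 library at 412 CPM.

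Of 27 activity-induced effectors, genes that carry activity out to the synapse, 4 rose (14.8%, against 1.78% of all genes tested) and none fell, with a median log2 fold change of 0.12. Arc, which organises receptor removal at synapses (chromosome 15, 74669083 to 74672570, minus strand), ran from 97.5 to 216 CPM in SS (median 137) and from 41.8 to 116 CPM in S24 (median 65.7). The 2 S24 libraries over 100 CPM overlapped with SS, and the log2 fold change was 0.93 (SE 0.24, adjusted p = 0.0316). That call was lost without any 1 of 7 libraries (Hipp-052 and Hipp-073 of SS, and Hipp-191, Hipp-201, Hipp-204, Hipp-205 and Hipp-225 of S24). Ccn1, a secreted matrix protein, rose from 3.74 ± 0.766 to 8.98 ± 2.40 CPM without overlap (1.26, SE 0.21, adjusted p = 0.000641). Zfp36, an mRNA decay factor, and the kinase gene Sik1 rose by 0.94 and 0.64. Bdnf, the neurotrophin, had 37.1 ± 10.3 CPM in SS and 38.2 ± 8.82 CPM in S24 (-0.05, SE 0.18, adjusted p = 0.921). Of 18 feedback kinases and phosphatases 2 rose (11.1%), Sik1 and Dusp1. Dusp1, a phosphatase that switches off MAP kinases, had 24.6 to 36.7 CPM in SS and 13 to 24.7 CPM in S24 (0.77, SE 0.15, adjusted p = 0.00234). Without the low-Prox1 libraries 1 effector, Ccn1 (1.12, adjusted p = 0.0118), and 0 feedback genes were called. There Arc had 1.01 (adjusted p = 0.166), Zfp36 0.87 (adjusted p = 0.175), Sik1 0.51 (adjusted p = 0.173) and Dusp1 0.63 (adjusted p = 0.0796).

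The cAMP response element was found in the promoter window (from before to just after the RefSeq start) of 2 of the 12 called immediate early factors with a RefSeq window, Btg2 and Maff, and in none of the 2 called effectors with one. It was found in 415 of 12447 tested genes with a window (3.33%) and in 549 of all 27025 genes with one (2.03%). Among all called genes with a window, 11 of 227 higher (4.85%) and 4 of 112 lower (3.57%) held it. In the effector list it stood before Scg2, Pcsk1, Plk2 and Arl4d, and none of these rose. Scg2, which encodes a granule protein of secretory neurons, overlapped between the groups (log2 fold change 0.28, SE 0.14, adjusted p = 0.28).

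Of 30 heat shock and protein folding genes 11 rose (36.7%, against 1.78% of all genes tested) and none fell, with a median log2 fold change of 0.49. Of the 11, 9 act in the ER or its stress response, and whether ER and cytosolic members differed was not tested. Those named below beyond Hspb1, Hyou1 and Xbp1 were chosen after their values were seen. Hspa5, which encodes the main ER chaperone BiP (chromosome 2, 34771970 to 34777547, plus strand), ran from 260.2 to 519 CPM in SS (median 405) and from 165 to 412 CPM in S24. Library Hipp-182 alone overlapped with SS, at 412 CPM, and the next S24 library had 221 CPM. The log2 fold change was 0.88 (SE 0.21, adjusted p = 0.0165) and 1.10 without library Hipp-182 (adjusted p = 0.000787). With only SS and S24 in the fit it was 0.88 and not called (adjusted p = 0.073). Hyou1, an ER chaperone of large size, had 167 ± 17.8 CPM in SS and 119 ± 9.84 CPM in S24 and did not overlap (0.49, SE 0.09, adjusted p = 0.00172).

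Creld2, an ER protein induced by stress, ran from 18.2 to 27.8 CPM in SS (median 24.2) and from 9.09 to 16.2 CPM in S24 (median 10.2). The groups were separate and the log2 fold change was 1.05 (SE 0.20, adjusted p = 0.00201). Manf, a secreted ER stress protein, had 49.8 ± 6.22 against 27.3 ± 7.78 CPM (0.86, adjusted p = 0.0025), and Sdf2l1, a BiP partner, 15.9 ± 4.37 against 6.72 ± 3.66 CPM (1.24, adjusted p = 0.00752). In both genes, and in Pdia4, Pdia6 and Calr, library Hipp-182 was the highest S24 library, and the log2 fold changes without it were 1.03, 1.56, 1.05, 0.80 and 0.70 against 0.86, 1.24, 0.88, 0.63 and 0.52 with it. The protein disulfide isomerases Pdia4 and Pdia6 help form disulfide bonds, and Calr encodes the calcium-binding chaperone calreticulin. Xbp1, whose mRNA is spliced in the ER stress response (chromosome 11, 5520659 to 5525893, plus strand), ran from 93 to 132 CPM in SS (median 117) and from 59.8 to 90 CPM in S24 (median 67.1) without overlap (0.70, SE 0.11, adjusted p = 0.000309). Gene counts do not show splicing.

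Of the 9 called folding genes with a RefSeq window, 4 held the ER stress response element printed above: Hspa5, Creld2, Pdia6 and Calr. It stood in 19 of the 12447 tested genes with a window (0.153%), in 5 of 227 called higher (2.2%) and in none of 112 called lower; the fifth was Syvn1, an ER ubiquitin ligase (0.37, adjusted p = 0.0431). Hsp90b1, the ER form of HSP90, held it at 2 places and was not called, with medians of 289 CPM in SS and 179 CPM in S24 (0.48, adjusted p = 0.0852), or 0.62 (adjusted p = 0.016) without library Hipp-182. The unfolded protein response element TGACGTGG was also searched for. It stood in 2 of 227 genes called higher (0.881%), in 128 of the 12447 tested (1.03%) and in none of 24 folding genes. No test is given, as these windows were examined after the genes were seen. The gene of an NF-Y subunit, Nfya (chromosome 17, 48386885 to 48409906, minus strand), was itself among the genes of smallest p. It ran from 27.3 to 39.3 CPM in SS (median 37.8) and from 18.5 to 26.8 CPM in S24 (median 21.5), with no overlap (0.73, SE 0.10, adjusted p = 9.50e-05).

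The cytosolic side was led by Hspb1, a small heat shock protein (chromosome 5, 135887919 to 135889563, plus strand), which ran from 7.04 to 18.8 CPM in SS (median 10.5) and from 1.47 to 5.4 CPM in S24 (median 2.47). The groups were separate, and the log2 fold change was 2.11 (SE 0.31, adjusted p = 0.000241). Its count is uncertain, since 50.1% of its 50-base stretches also occur in other genes, most in the pseudogene Hsp25-ps1. The only other cytosolic member that rose was Dnajb5 (0.41, adjusted p = 0.0243). Hspa1a and Hspa1b, the inducible HSP70 genes, which are near copies of each other and may not count separately, had log2 fold changes of 0.61 (adjusted p = 0.192) and 0.62 (adjusted p = 0.376). Hsp90aa1, the inducible HSP90 of the cytosol, had 563 ± 87.3 CPM in SS and 598 ± 142 CPM in S24 (-0.09, adjusted p = 0.821). The heat shock element was found in the windows of Chordc1, Hspd1, Hspe1 and Hsph1, none of them called, and in 73 of the 12447 tested genes (0.586%). None of the 227 genes called higher with a window held it. The number of folding genes that rose was 13 without library Hipp-182, 10 without the low-Prox1 libraries and 17 with the granule cell covariate. With only SS and S24 in the fit, Hspa5, Sdf2l1 (adjusted p = 0.0557), Pdia6 (0.0931), Dnajb5 (0.119) and Calr (0.149) lost the call. Hspb1, Hyou1, Creld2, Manf, Pdia4 and Xbp1 kept it.

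**Figure D3:**
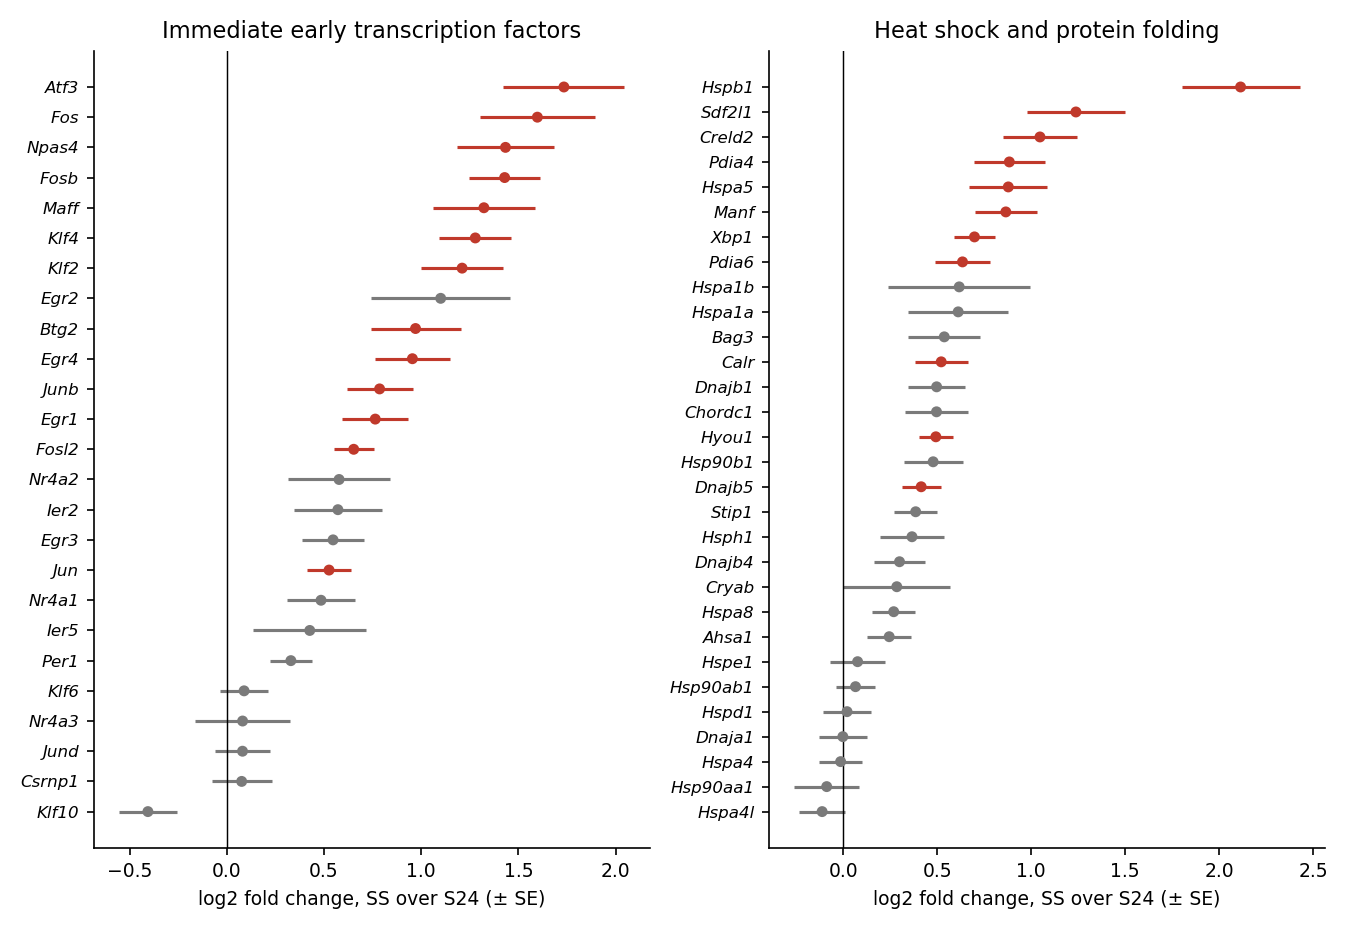
Log2 fold changes of SS over S24 with their standard errors from edgeR for the 25 immediate early transcription factors and the 30 heat shock and protein folding genes; red marks an adjusted p under 0.05. In all, 13 and 11 genes are red, and no red point lies below 0.

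Dio2 and Fam20a were among the clearest single changes. Dio2, the deiodinase that makes active thyroid hormone in the brain and is found in astrocytes (chromosome 12, 90724552 to 90738438, minus strand), had at least 88.5 CPM in every SS library (median 124) and 39 to 68.5 CPM in S24 (median 58.1). Every SS library lay above every S24 library (log2 fold change 1.16, SE 0.17, adjusted p = 0.000281). Fam20a, a pseudokinase that activates the secretory pathway kinase Fam20c (chromosome 11, 109669749 to 109722279, minus strand), ran from 21.3 to 32.3 CPM in SS (median 23.9) and from 10.1 to 16 CPM in S24 (median 11.5). It too was separate (1.03, SE 0.13, adjusted p = 2.40e-05). Rbm28, a nucleolar RNA-binding protein, and Mettl3, the catalytic subunit of the m6A RNA methyltransferase, rose by 0.67 (adjusted p = 0.000421) and 0.50 (adjusted p = 0.000475). An antisense neighbour, Tox4, shares 18.4% of the stretches of Mettl3, and the strand setting of the counting is not given in the sources used here. Mmp23, a metalloproteinase, and Noxred1 were low, with means of 2.13 and 2.66 CPM in SS and 0.698 and 1.22 CPM in S24 (1.59 and 1.12, adjusted p = 0.000629 and 0.000641).

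Genes that respond to glucocorticoids, the adrenal stress hormones, were divided. Of 29 listed, 7 rose (24.1%, against 1.78% of all genes tested) and none fell. A positive log2 fold change was found in 26, and the median was 0.29. Fkbp5, a cochaperone of the receptor and a standard readout, had 92.7 ± 7.16 CPM in SS and 90.2 ± 9.16 CPM in S24 (0.04, SE 0.11, adjusted p = 0.884). Sgk1, a kinase, had 97.7 ± 22.0 and 131 ± 51.2 CPM (-0.43, adjusted p = 0.494), and Per1 133 ± 29.7 and 106 ± 19.4 CPM (0.33, adjusted p = 0.0879). Tsc22d3, which encodes the glucocorticoid-induced leucine zipper, rose from 102 ± 27.7 to 154 ± 24.0 CPM (0.59, SE 0.15, adjusted p = 0.0245), but the value was 0.54 without library Hipp-182 (adjusted p = 0.0519). Cdkn1a, a cell cycle inhibitor, rose by 0.65 (adjusted p = 0.0431), with 0.59 without that library (adjusted p = 0.0789). Pdk4, Lcn2, Edn1, Bcl6 and Dusp1 made up the 7. Without library Hipp-182, 3 of the list were called, and none without the low-Prox1 libraries.

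Lcn2, a secreted iron-carrier protein of inflamed tissue, ran from 10.4 to 57.3 CPM in SS (median 31.3) and from 1.92 to 16.9 CPM in S24 (median 4.93). The SS libraries spread widely, and those at 10.4 and 11.8 CPM lay below 1 S24 library (log2 fold change 2.28, SE 0.61, adjusted p = 0.0344). Of 24 clock genes 2 rose (8.33%, against 1.78% of all genes tested). Per2, a repressor of the clock, rose from 52.1 ± 10.5 to 78.7 ± 14.1 CPM (0.59, adjusted p = 0.00544). Nfil3, a repressor that shares sites with Dbp, rose from 7.98 ± 1.47 to 12.8 ± 1.43 CPM (0.68, SE 0.12, adjusted p = 0.00104). The median of the clock list was 0.13.

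Gfap, the astrocyte filament, ran from 331 to 437 CPM in SS and from 229 to 310.1 CPM in S24 with no overlap (0.55, SE 0.14, adjusted p = 0.0251). It was the only 1 of 15 astrocyte markers to rise (6.67%, against 1.78% of all genes tested). Without the low-Prox1 libraries its value was 0.56 (adjusted p = 0.102). Of the 15 markers, 13 had a positive value in SS against S24 and 3 in CS against C24. Tmem119, a marker of resident microglia, rose from 17.9 ± 4.16 to 26.9 ± 2.34 CPM (0.59, adjusted p = 0.00821), as the only 1 of 17 microglial markers (5.88%). All 17 had positive values (median 0.32). In CS against C24 only 1 of the 17 did (median -0.275), and 2 fell. Tmem119 had 0.44 (adjusted p = 0.166) without the low-Prox1 libraries. Gpr17 and Tmem100 rose among 11 markers of oligodendrocyte precursors (0.46 and 0.57), which is 18.2% of that list. Irf9, the DNA-binding part of the interferon factor complex, ran from 16.7 to 25.8 CPM in SS and from 9.72 to 16.6 CPM in S24 (0.71, SE 0.12, adjusted p = 0.000641). It was the 1 of 28 interferon-induced genes to rise (3.57%). Of the 28, 24 had a positive value in SS against S24 and 3 in CS against C24. No member passed in the lists of glutamate receptors (26), GABA-A subunits (13), neuropeptides (18), oxidative phosphorylation subunits (43), ribosomal proteins (39), interneuron markers (21), general neuron markers (15) or myelin genes (16). The 2 dopamine neuron genes that were called, Slc6a3 and Chrna6, rested on library Hipp-191: without it Slc6a3 had a log2 fold change of 0.63 (adjusted p = 0.693).

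Pigk, the enzyme that attaches proteins to lipid anchors (chromosome 3, 152714100 to 152980408, plus strand), ran from 67.1 to 76.3 CPM in SS (median 71.1) and from 79.6 to 96.8 CPM in S24 (median 89.9). The groups did not overlap, and the log2 fold change was -0.35 (SE 0.06, adjusted p = 0.000421). Insig1, a sterol sensor that holds back cholesterol synthesis (chromosome 5, 28071363 to 28078662, plus strand), ran from 42.7 to 55.2 CPM in SS and from 62.2 to 86.5 CPM in S24 (-0.53, SE 0.10, adjusted p = 0.00167). Prkaa2, a catalytic subunit of the energy sensor AMPK (chromosome 4, 105029874 to 105109890, minus strand), ran from 25 to 34.5 CPM in SS and from 38.7 to 54.7 CPM in S24 (-0.66, SE 0.14, adjusted p = 0.00559). Both were separate in every library. Without the low-Prox1 libraries Pigk (adjusted p = 0.0302) and Insig1 (adjusted p = 0.0487) kept the call, and Prkaa2 did not (-0.55, adjusted p = 0.115).

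Fbxl4 and Coq3, which serve mitochondrial upkeep and ubiquinone synthesis, fell by 0.61 and 0.48 on the log2 scale, Exoc2, an exocyst subunit, by 0.45, Parn, a poly(A) ribonuclease, by 0.38, Lars, the cytosolic leucyl-tRNA synthetase, by 0.35, and Nxpe4 by 0.67, each without overlap. Tfrc, the transferrin receptor, had 80.1 ± 27.2 CPM in SS and 146 ± 34.9 CPM in S24 (-0.87, SE 0.17, adjusted p = 0.00408), and Armcx5 19.6 ± 3.55 and 32.6 ± 6.45 CPM (-0.73, adjusted p = 0.000631). Without the low-Prox1 libraries Exoc2 (-0.39, adjusted p = 0.104), Parn (-0.33, adjusted p = 0.0835) and Tfrc (-0.81, adjusted p = 0.102) were not called. Fbxl4, Coq3, Lars, Nxpe4 and Armcx5 kept the call. Cirbp, an RNA-binding protein that rises with cooling (chromosome 10, 80165985 to 80172786, plus strand), ran from 39.1 to 45.9 CPM in SS (median 45.2) and from 36.9 to 106 CPM in S24 (median 73.7). Library Hipp-182 held the lowest value, the other 6 S24 libraries exceeded all SS libraries, and the log2 fold change was -0.72 (SE 0.15, adjusted p = 0.00736) with that library and -0.83 without it (adjusted p = 0.000377).

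The same contrast in mice with a cocaine history, CS against C24, shares no library with SS against S24. There 429 genes (2.51%) rose and 354 (2.07%) fell. Of the genes that rose in SS 103 also rose in CS (34.0% of the SS genes, 24.0% of the CS genes) and 268 of 303 had the same sign; of those that fell 42 also fell (26.1% and 11.9%) and 79.5% had the same sign. None was called in opposite directions. Over all genes the 2 sets of log2 fold changes had a correlation of -0.29 across genes, which are not independent replicates, and granule cell markers lay in opposite directions, with medians of 0.54 in SS and -0.39 in CS. The test of the difference between the contrasts called 0 genes in edgeR (0%, 2755 at an unadjusted p under 0.05) and 19 in DESeq2.

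Side by side, Fosb had log2 fold changes of 1.43 and 1.63 in the saline and cocaine histories, Fos 1.60 and 1.67, Npas4 1.43 and 1.49 and Dio2 1.16 and 1.22. The immediate early factors had 13 calls in SS and 10 in CS. Folding genes had 11 calls in SS and 27 of 30 in CS, with medians of 0.49 and 0.84. The CS libraries Hipp-014, Hipp-055 and Hipp-151 and the C24 library Hipp-183 lay under 30 CPM of Prox1, and Hipp-055 carried choroid plexus transcripts (Ttr at 19654 CPM, 0.357 to 14.6 CPM in the other CS libraries). Hipp-055 was the highest CS library for Hspa5 (814 CPM, against 415 to 584 CPM in the others, all above every C24 library). Without the libraries over 1000 CPM of Ttr 23 folding genes rose in CS (median 0.77, Hspa5 1.43), and without the low-Prox1 libraries 18 did (median 0.81, Hspa5 1.44). Hspa5 stood at 0.88 and 1.58 (unadjusted p of the difference 0.02), Dnajb1 at 0.50 and 1.12 (0.00644) and Hspa4l at -0.11 and 0.53 (0.000595), and none of these differences passed adjustment. Fam20a had 1.03 and 0.27, Prkaa2 -0.66 and -0.01, Pigk -0.35 and -0.06, and Klf2 1.21 and 0.07, with unadjusted p from 0.00023 to 0.00146 for the difference and no adjusted p under 0.05.

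**Figure D4:**
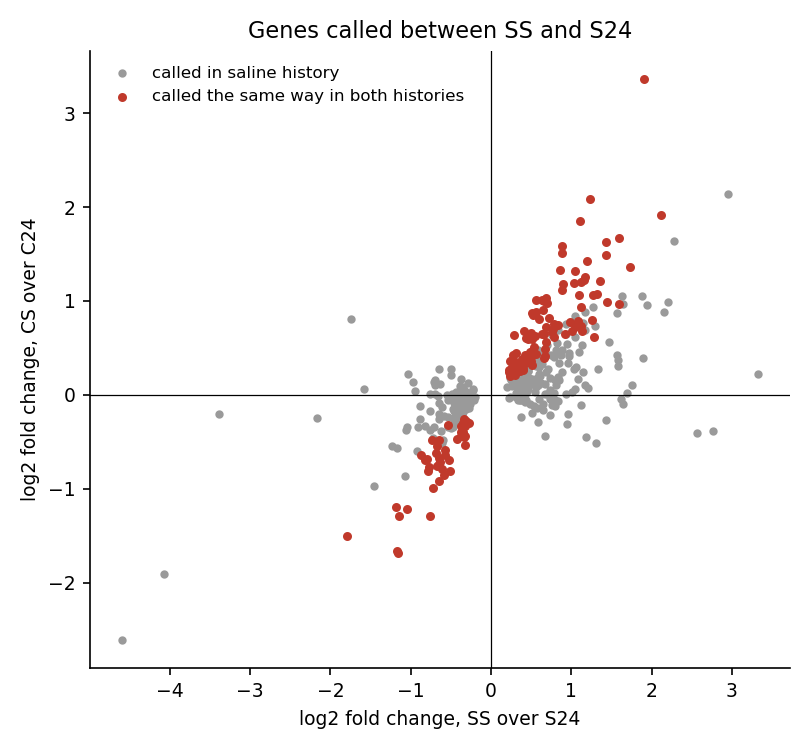
Log2 fold changes after saline history (SS over S24, horizontal) and after cocaine history (CS over C24, vertical) for the 464 genes called between SS and S24, 1 point per gene. Red marks those called the same way in both histories, 103 to the upper right and 42 to the lower left of 0.

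Whether the ventral hippocampus differed from elsewhere was tested against the mean of the other 5 regions (amygdala, dorsal striatum, nucleus accumbens, prefrontal cortex and ventral tegmental area) in limma over all 230 libraries, 69 of them SS or S24 libraries of those regions. The difference was called in 816 of 18927 genes (4.31%), 368 above and 448 below. Tissue markers were among them: 5 of 18 granule cell markers and 7 of 15 meningeal markers were called, all above. Without library Hipp-182, 3 and 4 of these were called. The part of tissue content in the 816 was not tested. In the other regions' mean 14.5% of genes rose and 15.4% fell, and 252 of the 303 genes that rose in the ventral hippocampus and 70.2% of those that fell were called the same way there, with medians of 0.28 and -0.25. Fosb had 1.20 in the other regions and a difference of 0.23 (SE 0.20, adjusted p = 0.525), and Fos 1.40 and 0.34 (adjusted p = 0.507). Of the 25 immediate early factors 1 differed, Klf10, with -0.55 (adjusted p = 0.0384), and it was not called without library Hipp-182 (-0.50, adjusted p = 0.0833).

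Of the 30 folding genes 7 differed, all of them lower in the ventral hippocampus and none of them an ER chaperone. Hspa1b rose by 2.84 in the other regions and its difference was -2.09 (adjusted p = 0.00306). Hsp90aa1 had 0.44 there and a difference of -0.51 (adjusted p = 0.0143), Hspa4l 0.44 and -0.55 (adjusted p = 0.00288), Dnaja1 0.40 and -0.42 (adjusted p = 0.0119), Hspa4 0.32 and -0.33 (adjusted p = 0.0162), Hspd1 of the mitochondrion 0.35 and -0.34 (adjusted p = 0.0333) and Hsp90ab1 0.33 and -0.27 (adjusted p = 0.04). Without library Hipp-182, 5 of the 7 were called, all but Hspd1 and Hsp90ab1. Hspa5 had 1.01 in the other regions and a difference of -0.09 (adjusted p = 0.774), and Xbp1 0.63 and 0.07 (adjusted p = 0.749).

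Among the genes named above, Fam20a and Nfya rose more in the ventral hippocampus, by 0.55 (SE 0.14, adjusted p = 0.0131) and 0.35 (adjusted p = 0.00529) beyond the other regions' 0.47 and 0.37. Prkaa2 had -0.00 in the other regions and a difference of -0.66 (adjusted p = 0.00215), Pigk -0.11 and -0.24 (adjusted p = 0.00672), and Exoc2 -0.19 and -0.27 (adjusted p = 0.0348). The 5 genes of smallest p in each direction included Il20rb, a cytokine receptor subunit (difference 2.06, adjusted p = 8.53e-05), Eya2 (1.66), Cyth4 (0.76) and Ppic (1.32) above, and Reep1, which shapes the ER of axons (-0.45), Plpp6 (-0.47), Trhde (-1.19), Rap1gds1 (-0.42) and Prkaa2 below. Il20rb ran from 0.442 to 0.733 CPM in the 3 low-Prox1 S24 libraries and from 1.8 to 3.28 CPM in the other 4. The part of granule cell content in the values of this gene and of the others was not tested. Prox1 itself differed by 1.34 (adjusted p = 0.0168), or 1.11 (adjusted p = 0.0713) without library Hipp-182.

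**Figure D5:**
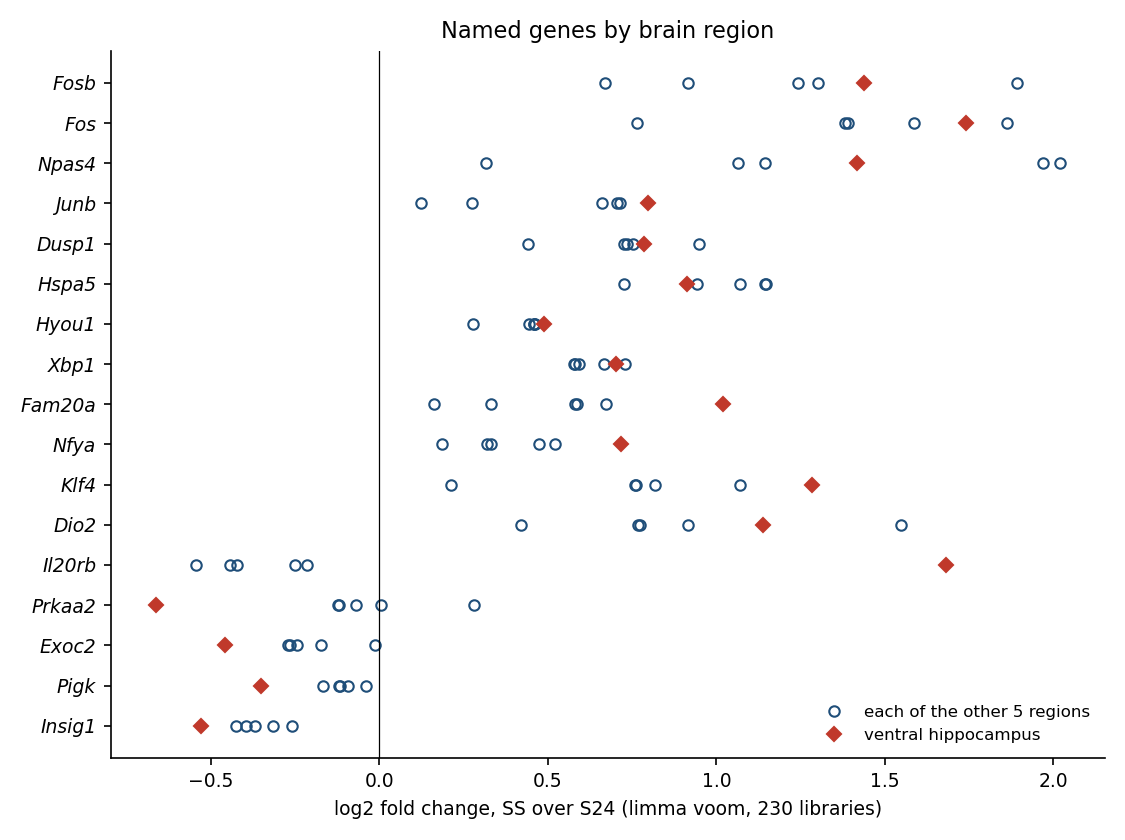
Log2 fold changes of SS over S24 for 17 genes in the ventral hippocampus (red diamonds) and in each of the other 5 regions (open circles), from the limma fit over 230 libraries. Fosb, Fos, Hspa5 and Xbp1 lie within the range of the other regions, while Fam20a, Nfya, Prkaa2, Pigk and Exoc2 lie outside it. Klf4, Junb, Hyou1 and Insig1 also lie outside it, but their difference was not called in limma (adjusted p = 0.0522, 0.365, 0.648 and 0.278). Lying outside the range is therefore no test of a difference.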

How the data were processed

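RNA from 6 brain regions of 45 mice was sequenced as 230 libraries after ribosomal RNA depletion with the ScriptSeq Complete Gold kit, per the labels' protocols, while the labels' molecule field names polyA RNA. The authors deposited whole-number read counts per gene; HTSeq, limma and mm10 are listed per the submitters' processing notes, and aligner, annotation and strand setting are not given in the sources used here. GENCODE M21 gave symbols for 98.0% of the 43346 identifiers. Mitochondrial genes had no counts.

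The 39 ventral hippocampus libraries (17159879 to 28746378 reads) were fitted together in 6 groups with edgeR 4.0.16 (TMM factors, genes kept at a minimum count of 10 and a total of 15, robust quasi-likelihood F test), in R 4.3.3. Benjamini-Hochberg adjusted p under 0.05 over all genes was the threshold. The difference from other regions was tested with limma 3.58.1 (voom) over 230 libraries with the mouse as a block (consensus correlation 0.04). Alternatives were DESeq2 1.42.0, voom, other scaling, no filter, only the 2 groups, 2 surrogate variables from sva 3.50.0, leaving out each library, and, chosen after seeing the data, leaving out libraries by Prox1, Ttr or dopamine transcripts and a granule cell covariate. The fits were tested on simulated data.

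The members and lists were chosen with earlier results of these data known. Named genes were the 12 of smallest p in each direction with at least 1 CPM, a fixed set of activity, stress and marker genes, up to 3 called members of each list (or the 1 of smallest p), and the 5 of smallest p in each direction in the region test; others are named as seen after their values. No pair of libraries was a duplicate by a chi-square comparison of counts. Each ventral hippocampus library is 1 mouse per its title, so p-values of that fit measure the spread between mice, pooled over the 6 groups. In the region test a mouse can give libraries of several regions, so its p-values also hold the spread between regions of a mouse. SS and S24 share no mouse. CPM standard deviations are over libraries. Promoter windows came from RefSeq (GRCm38.p6). A gene that the naming rule picked is not reported here.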

Additional observations from a re-analysis of the deposited data

Results flagged for a closer look

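In 172 groups of values examined, 19 had a library far from the others, by the gap to its neighbour over the range. The limit used gives about 1 in 20 groups for normal and independent values. CPM values need not be normal, and the same libraries recur, so 19 cannot be set against that rate. Library Hipp-182 of S24 stood apart for Ttr (17411 CPM), Hspb1 (5.4 CPM, high) and Fkbp5 (71.7 CPM, low). Library Hipp-191 of S24 was high for Slc6a3 (158 CPM), Chrna6 (23.2 CPM), Lcn2 (16.9 CPM) and Scg2 (276 CPM), and library Hipp-225 for the myelin gene Opalin (22.2 CPM). In SS, library Hipp-035 was high for Ogn (118 CPM), Zic4 (15.6 CPM) and Eya2 (16.7 CPM), and library Hipp-052 for Lct (104 CPM), Ttr (19.7 CPM) and Tmem212 (0.0459 CPM, the others at 0). The Tmem212 value is at the floor of counting, under 3 reads in a library of 21871533. Library Hipp-122 was high for Elavl2 (129.9 CPM). Library Hipp-162 was high for Fam20a (32.3 CPM), Ccn1 (13.6 CPM) and Rps28 (114 CPM) and low for Nfya (27.3 CPM).

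The change from S24 to SS differed between the ventral hippocampus and the mean of the other regions, by limma, in 22 of the 86 named genes. Some of the 86 were named because they had the smallest p in this same test. Others were named for a small p between SS and S24 in the same ventral hippocampus libraries. The 22 therefore give no rate, and cannot be set against the 816 of all 18927 genes (4.31%) that were called. The log2 differences above 0 included Fam20a 0.55, Nfya 0.35, Prox1 1.34, Plk5 1.65, Lct 1.69, Ogn 1.58, Wnt7a 0.42, Il20rb 2.06, Eya2 1.66, Cyth4 0.76 and Ppic 1.32. Those below 0 were Pigk -0.24, Exoc2 -0.27, Prkaa2 -0.66, Elavl2 -0.80, Htr2c -1.37, Gria4 -0.34, Reep1 -0.45, Plpp6 -0.47, Trhde -1.19 and Rap1gds1 -0.42. Without library Hipp-182, 20 of the 22 were called, all but Lct (adjusted p = 0.0782) and Prox1 (adjusted p = 0.0713).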

How the results depend on the processing

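Against 464 genes called, 303 of them higher in SS, DESeq2 called 501 higher and 337 lower, no filter on low counts 178 and 59, only the 2 groups 68 and 11, and removal of the low-Prox1 libraries 46 and 20; the granule cell covariate gave 98 lower. Leaving out 1 library gave 146 to 402 higher and 55 to 266 lower. The higher count moved over 1.5 times without Hipp-052 (187), Hipp-073 (172), Hipp-201 (146) and Hipp-225 (156), and the lower count without Hipp-035 (78), Hipp-052 (79), Hipp-073 (90), Hipp-122 (266), Hipp-201 (55) and Hipp-225 (62). For CS against C24, no filter gave 238 higher and 202 lower, and removal of the low-Prox1 libraries 140 and 79. The difference between histories had 19 calls in DESeq2 against 0. The difference from other regions had 480 calls without library Hipp-182 and 356 with no filter, against 816. No paired analysis was possible because SS and S24 share no mouse number; in the region test, dropping the mouse block gave 656. Slc6a3 turned to 0.52 in DESeq2 and 0.63 without Hipp-191, and Chrna6 to 0.62 in DESeq2; leaving out 1 library, Slc6a3 ran from -4.93 to 0.63. What made these counts and values move was not tested. Of 2060 values of named genes under a setting, 1885 stayed on the same side of the threshold (17 of them with a changed sign and not called either way), 131 lost the call, 40 gained it and 4 reversed; 22 of 50 called named genes kept the call in every setting.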

Other observations

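These 3 lists were chosen after values had been seen, so their counts are a description. Over all genes tested 1.78% rose and 0.944% fell. Of 24 genes of sterol synthesis and uptake, 1 rose and 4 fell in SS, and 21 had a negative log2 fold change (median -0.27; -0.02 in CS against C24). Hmgcs1, which encodes the synthase before the rate-limiting step of cholesterol synthesis, had 196 ± 38.7 CPM in SS (n = 6) and 274 ± 42.9 CPM in S24 (n = 7), with a log2 fold change of -0.48 (adjusted p = 0.0185). Stard4, a sterol carrier, and Sqle, an epoxidase of the pathway, fell by 0.50 and 0.37 on the log2 scale, and their ranges overlapped between the groups. Insig1 was the fourth, and Ebp rose by 0.33. Hmgcs1 and Stard4 differed from the other regions in limma (adjusted p = 0.0189 and 0.0155). Without the low-Prox1 libraries Insig1 alone of these 5 was called.

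Of 22 further genes of ER stress 7 rose and none fell (median 0.24). Herpud1, part of ER-associated degradation, ran from 68.8 to 78.7 CPM in SS and from 45.2 to 58.3 CPM in S24 (0.51, adjusted p = 0.0192). Stc2, a secreted glycoprotein, ran from 7.11 to 15.3 and from 3.51 to 6.11 CPM (1.05, adjusted p = 0.00875). Neither gene's groups overlapped. Without the low-Prox1 libraries Herpud1 alone of the 7 was called (adjusted p = 0.0302), and without library Hipp-182 Ddit3 (adjusted p = 0.0615) and Syvn1 (adjusted p = 0.0508) were not. All 7 were also called in CS against C24, where 13 rose.

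Of 21 tested genes of endothelial activation and the acute phase response 9 rose and none fell (median 1.16), with 0 called in CS against C24 (median 0.30). Csf3r, the receptor of granulocyte colony-stimulating factor, ran from 9.37 to 12.8 CPM in SS and from 5.54 to 7.15 CPM in S24, with no overlap (0.74, adjusted p = 0.00687). Icam1, an adhesion molecule for leukocytes, ran from 3.89 to 18.7 and from 1.59 to 4.51 CPM (1.75, adjusted p = 0.0371). None of the 9 was called without the low-Prox1 libraries, where their adjusted p ran from 0.0641 to 0.239. Meningeal markers were higher in SS library Hipp-035, and their part in these results was not tested.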
